A study of Homo sapiens with 2 samples.

Results

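The nuclear genes for the subunits of oxidative phosphorylation were followed in HEK-293 cells, a human embryonic kidney cell line, after transfection of a miR-204 mimic. Members were all gene names on the array that begin with NDUFA, NDUFB, NDUFC, NDUFS or NDUFV and end in a number, SDHA to SDHD, and names that begin with UQCR, with COX4 to COX8 or with ATP5. The rule uses names alone and no measured value. It gave 81 of 30484 gene names, with 118 probes. Of these, 62 names are present symbols and 19 are older ones, such as ATP5B for ATP5F1B. COX4NB (now EMC8), ATP5S (now DMAC2L) and COX7A2L (a supercomplex factor) match the names without being subunits, and were kept with the complex of that name, as was NDUFA4, now placed in complex IV. One of the 2 RNAs came from cells given the miR-204 mimic and the other from cells given a scramble oligo, and both groups were HEK-293 cells in serum-containing medium. The sample labels give 75 nM of oligo and harvest after 48 h. The RNAs were hybridized together on a 2-colour whole genome array and again on a second array with the dyes exchanged, a dye swap. The control RNA carried Cy3 and the miR-204 RNA Cy5 on the first array. No second transfection is named in the labels or methods, so the 2 arrays were counted as 1 replicate, no test between the conditions was possible, and every value below describes this pair of RNAs.

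Oxidative phosphorylation takes place in the inner mitochondrial membrane. Complex I (NDUF genes) takes electrons from NADH and complex II (SDH genes) from succinate, complex III (UQCR genes) passes them to cytochrome c, and complex IV (COX genes) passes them to oxygen. Complexes I, III and IV pump protons, and complex V (ATP5 genes), the ATP synthase, makes ATP as the protons flow back. Complex II is encoded by nuclear genes alone, whereas the other complexes also hold subunits encoded in mitochondrial DNA. The nuclear factors NRF1, GABP (of the ETS family) and YY1 are known to bind promoters of many of the nuclear genes.

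A microRNA pairs with messages mainly through its seed, bases 2 to 8 of the mature strand, and mostly lowers their level. The mature strand of miR-204 is shown because it is the agent that was transfected, beside that of miR-211, which shares its seed. Both are from RefSeq (GRCh38.p14), 5′ to 3′ with the seed in capitals, and lie at chr9:70810031-70810052 and chr15:31065095-31065116, each on the minus strand.
hsa-miR-204-5p: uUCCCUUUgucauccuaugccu
hsa-miR-211-5p: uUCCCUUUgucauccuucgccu
Matches to the seed in the messages of the members were not examined here.

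Between 25284 and 29024 of 43376 spots per channel were well above background by the limit of the authors' extraction software. Of 6 markers of HEK-293 cells, VIM, KRT8, KRT18, NEFL and NEFM passed this limit and PAX2 did not. Of the markers of other cell types, PTPRC, PECAM1, ALB, MYH7 and INS did not pass, while CKM did. The genes of the respiratory complexes were well covered. All 4 channels passed the background limit on 111 of the 118 member probes (94.1%), against 56.7% of all 41000 probes, and no member probe was flagged or saturated. A probe was counted when it was well above background on both arrays in at least 1 RNA. This left out 6 of the 118 member probes and 3 of the 81 genes, so that 78 member genes were counted, among 25270 probes and 18585 gene names in all. The 3 genes not counted were COX4I2, COX7A1 and COX7B2.

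The messages for the respiratory complexes differed little between miR-204 and control RNA. Values are log2 ratios of miR-204 over control after quantile normalization of the 4 channels, turned to the same direction on both arrays and averaged over the counted probes of a gene and over the arrays. No member gene was called 2-fold lower or 2-fold higher with 1 sign on both arrays. In all gene names, 0.452% were called 2-fold lower and 0.151% 2-fold higher. At 1.5-fold, again no member was called in either direction, beside 2.06% of all gene names lower and 1.44% higher. The lowest mean was -0.27 (SDHD, a ratio of 0.829) and the highest 0.35 (NDUFC2, a ratio of 1.28). Of the 78 genes, 70 (89.7%) lay within 0.2 of 0 on the log2 scale, against 63.7% of all gene names. The exceptions were SDHD, SDHA, NDUFA1, COX5A and ATP5B on the low side and NDUFC2, COX7B and NDUFA10 on the high side.

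**Figure D1:**
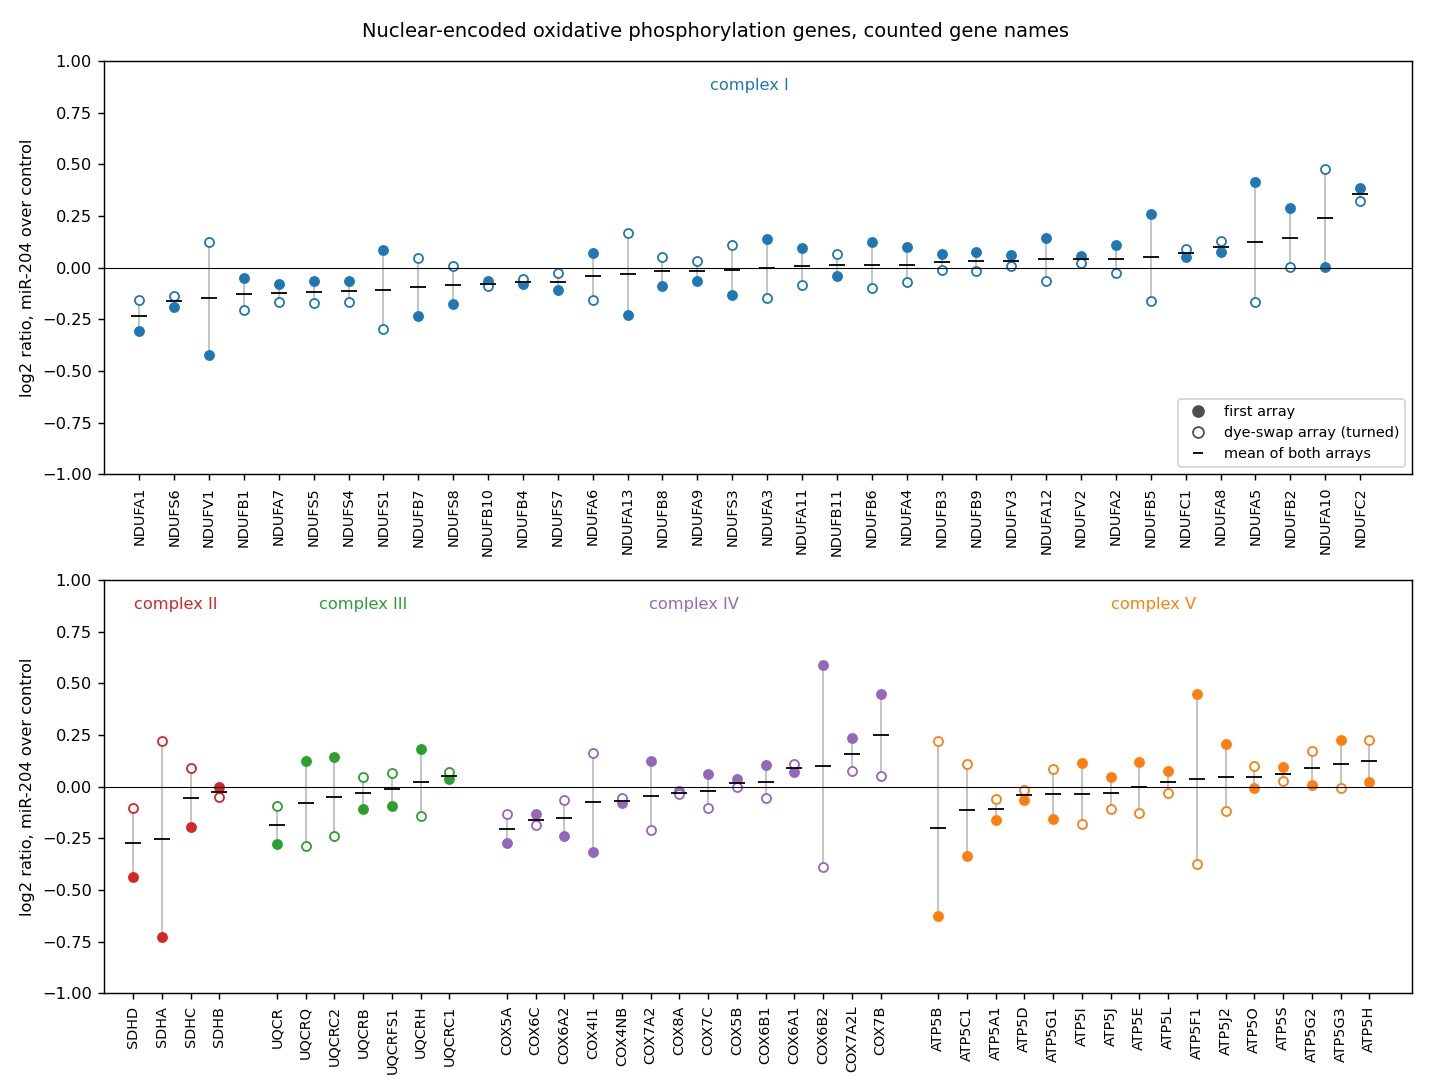
Log2 ratios of miR-204 over control (vertical axis) for the counted genes named here (horizontal axis), by complex and ordered by their mean. Filled circles are the first array, open circles the dye-swap array after turning and black dashes their mean, and the means run from -0.27 (SDHD) to 0.35 (NDUFC2), while SDHA and ATP5B lie far below 0 on the first array only.

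As a group the genes were neither shifted up nor down by more than a few hundredths. The median mean log2 ratio over the members was -0.017, with 0.016 on the first array and -0.028 after the dye swap. Over all gene names these medians were 0.002, 0.021 and -0.004. Of the 78 genes, 19 (24.4%) were lower with miR-204 on both arrays and 14 (17.9%) were higher on both, against 22.8% and 24.5% of all gene names. The remaining genes had opposite signs on the 2 arrays. There were 27 (34.6%) higher on the first array alone and 18 (23.1%) higher on the dye-swap array alone, beside 27.8% and 24.7% of all gene names. The members' counts lie near these shares, and with 1 replicate they were not tested.

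The members' probes were bright. Of those counted, 82 (73.2%) lay among the brightest 10% of all counted probes, so the members were also set against probes of like signal. Among these brightest probes, the SD of the mean log2 ratio was 0.0963 over the 82 member probes and 0.174 over the other 2445 probes, and the medians were -0.025 and 0.013. With the median of probes of like signal taken off each ratio, in 20 classes of signal, the median over member genes was -0.028. The centred values ran from -0.29 to 0.34, with 19 genes lower and 11 higher on both arrays. No share over all gene names is given for centred ratios, so these counts are not read as a shift. The narrower spread of the members was thus also present among bright probes alone, and it was not tested. The brightness of a probe depends on the probe as well as on its RNA, so no level was compared between genes.

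**Figure D2:**
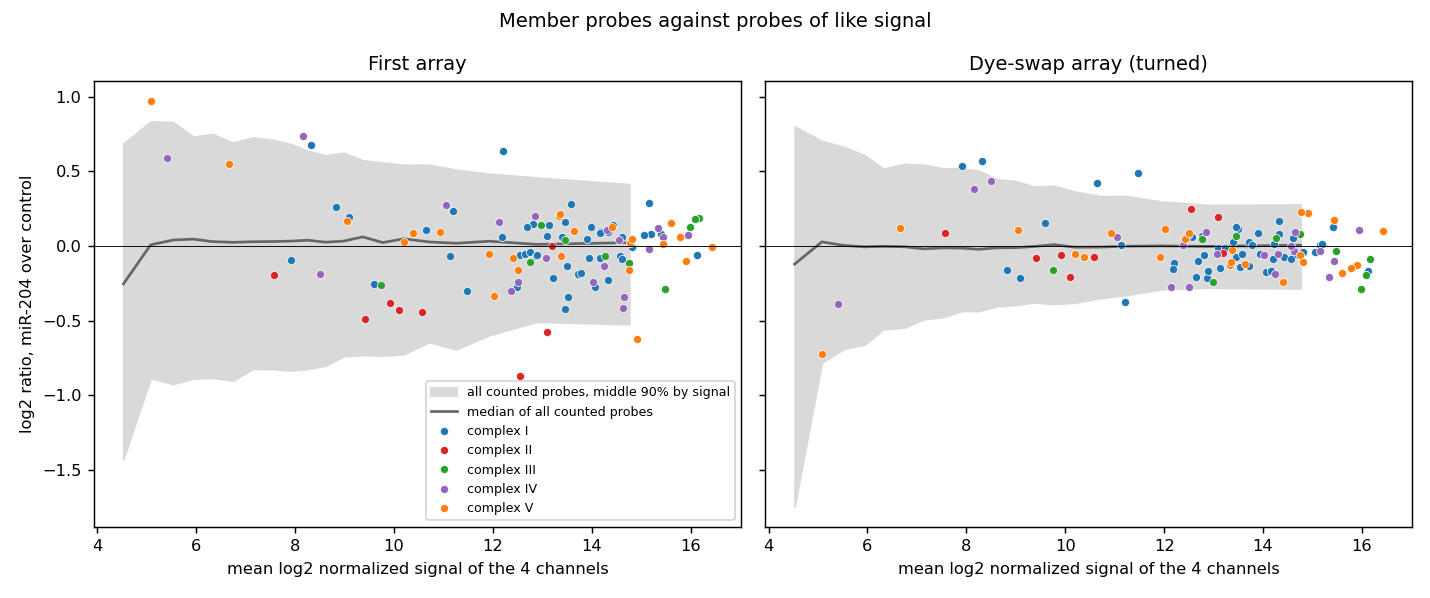
Log2 ratio of miR-204 over control (vertical axis) against the mean log2 normalized signal of the 4 channels (horizontal axis) for the counted member probes, coloured by complex, on each array. The grey band holds the middle 90% of all counted probes in each of 20 classes of signal, drawn at the class medians. Most member probes lie at the bright end and inside the band, and some lie outside it. On the first array both SDHA probes lie below it, and the ATP5B probe (-0.63) is below the lower limit of the brightest class (-0.52).

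Complex II had the lowest median of the 5 complexes on the first array and in the mean, and the highest on the dye-swap array. Its 4 genes had a median of -0.315 on the first array, 0.019 on the dye-swap array and -0.152 in the mean. SDHD, a membrane anchor, was measured by 4 probes between positions 111470917 and 111471135 of chromosome 11 (hg18), some of which overlap. On the probe with the lowest mean, the normalized signals were 1249 in control and 928 in miR-204 RNA on the first array, and 1194 and 1033 after the dye swap. Each of the 4 SDHD probes was lower with miR-204 on both arrays, with means from -0.32 to -0.22. The gene averaged -0.44 on the first array and -0.10 after the dye swap, the lowest mean of all members. About 12.5% of all gene names had a lower mean.

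Of the other genes of complex II, SDHB was also lower on both arrays, by little, and SDHA and SDHC changed sign. SDHA, the flavoprotein that oxidizes succinate, had signals of 10117 in control and 6776 in miR-204 RNA on its brighter probe on the first array, but 8674 and 9942 after the dye swap. Its gene value was -0.73 on the first array and 0.22 after the dye swap, and both of its probes changed sign in this way. SDHB, the iron-sulphur subunit, was at 0.00 and -0.05, with signals between 8728 and 9765 in all 4 channels. SDHC, the other membrane anchor, was at -0.19 and 0.09.

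Complex I, the largest of the complexes, was centred on 0. Its 37 genes had a median of -0.003, with 9 lower and 7 higher on both arrays, and 34 of them lay within 0.2 of 0. NDUFA1, an accessory subunit of the membrane arm, had the lowest mean, -0.23. Its probe on chrX:118891323-118891382 (hg18) gave signals of 18481 in control and 15306 in miR-204 RNA on the first array, and 18335 and 16259 after the dye swap. The gene was lower on both arrays (-0.31 and -0.16), and its 2 probes differed by little (-0.24 and -0.22).

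NDUFC2, another accessory subunit of the membrane arm, had the highest mean of all members, but its 2 probes disagreed. The probe at chr11:77457083-77457142 (hg18) had signals of 256.0 in control and 409.8 in miR-204 RNA on the first array, and 256.5 and 380.5 after the dye swap. Its log2 ratios were 0.68 and 0.57, and it was the 1 member probe past 1.5-fold with 1 sign on both arrays, where 1.27% of all counted probes were called higher. No member probe was called 1.5-fold lower, beside 2.62% of all counted probes. The probe at chr11:77458588-77458647, with signals between 19388 and 21962, gave 0.09 and 0.08. Both probes were thus higher with miR-204 on both arrays, by amounts that differed by over 0.5 on the log2 scale. NDUFA10, an accessory subunit, had a mean of 0.24 that came from the dye-swap array (0.48), with 0.00 on the first.

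The core subunits of complex I, which carry the flavin and the iron-sulphur clusters, numbered 7 here and had a median of -0.068, with 1 lower and 1 higher on both arrays. NDUFV1, which holds the flavin that accepts electrons from NADH, was at -0.42 on the first array and 0.12 after the dye swap. NDUFS1, the largest iron-sulphur subunit, went the other way, with 0.08 and -0.30. Neither kept its sign when the dyes were exchanged. The 29 accessory subunits had a median of 0.006, with 8 lower and 6 higher on both arrays.

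In complex III, the 7 genes had a median of -0.031, and 1 gene was lower and 1 higher on both arrays. UQCR (now UQCR11), a small accessory subunit, was lower on both, with -0.28 on the first array and -0.10 after the dye swap. Its brighter probe had signals of 51658 in control and 42352 in miR-204 RNA on the first array, and 45385 and 44406 after the dye swap. UQCRC1, a core protein, had the highest value among complex III genes with 1 sign on both arrays, 0.04 and 0.07. UQCRFS1, the Rieske iron-sulphur protein, was at -0.09 and 0.07. All complex III genes other than UQCR had means between -0.08 and 0.05.

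In complex IV, 14 of 17 genes were counted, with a median of -0.024, 5 lower and 3 higher on both arrays. COX5A, a nuclear-encoded subunit of the matrix side, was lower on both arrays (-0.27 and -0.13). Its 2 probes had means of -0.26 and -0.15, and the second was at 0.01 on the dye-swap array. COX5B, which binds zinc, was at 0.04 and 0.00. COX7B, a small membrane subunit, had the highest mean, 0.25, but again from 1 of 2 probes. Its probe at chrX:77049088-77049147 (hg18) had signals of 231.7 in control and 385.9 in miR-204 RNA on the first array, and 235.9 and 307.3 after the dye swap, a mean of 0.56. The other probe, with signals between 4094 and 5112, had a mean of -0.06 and opposite signs on the 2 arrays. COX7A2L, a factor of supercomplex assembly, was higher on both arrays (0.24 and 0.08), on each of its 2 probes.

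Complex IV is known for subunits with isoforms that differ between tissues, and the array held both forms of several. COX4I1, the common form of subunit IV, was at -0.31 on the first array and 0.16 after the dye swap, but its 3 probes differed. The brighter ones were at -0.34 and 0.09 and at -0.42 and -0.04. The dimmest, with signals no higher than 469.5, was at -0.19 and 0.43. COX4I2, the form known from lung, passed the background limit in no channel. COX6A1 was at 0.07 and 0.11, over 1 probe, as its other probe did so in no channel either. The probe of COX6A2, the heart and muscle form, passed in all 4 channels, at -0.24 and -0.06. COX6B1 was at 0.10 and -0.06, and COX6B2, the testis form, at 0.59 and -0.39 over 1 of 2 probes, with signals no higher than 51.4. COX7A2 was at 0.12 and -0.21. Its muscle counterpart COX7A1 passed the background limit in both RNAs on the first array and in neither on the dye-swap array, so no ratio was taken. COX7B2 passed in no channel, and COX8A, at -0.02 and -0.04, was among the members nearest to 0 on both arrays.

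**Figure D3:**
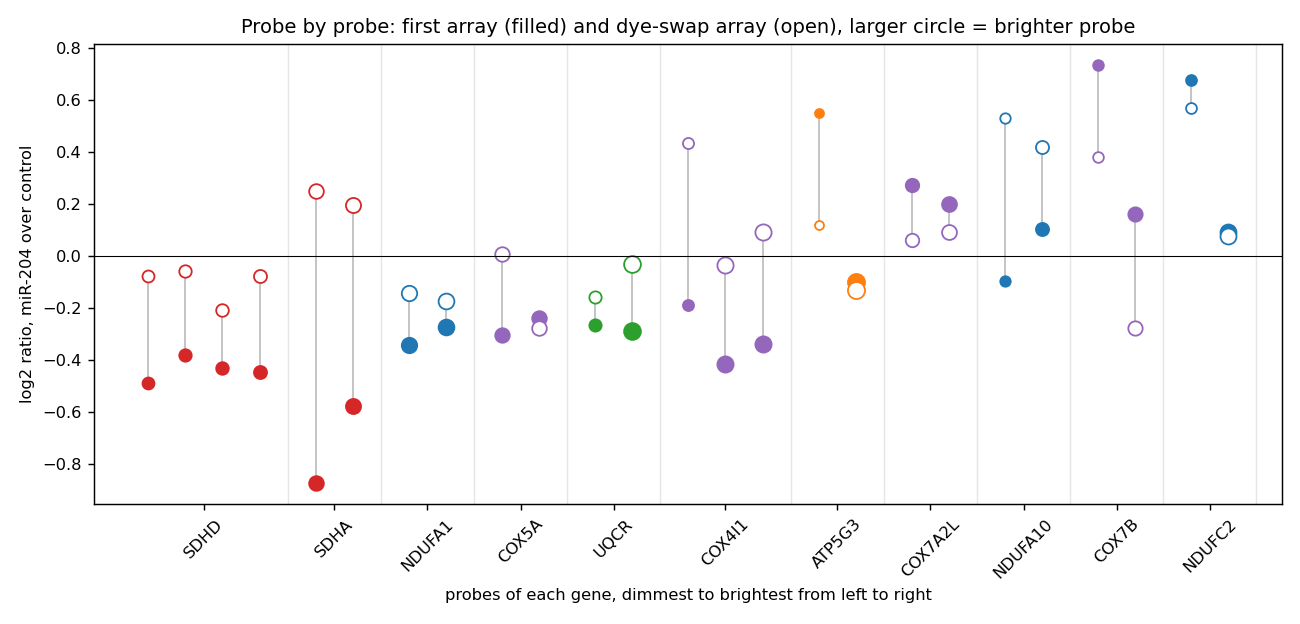
Log2 ratio of miR-204 over control (vertical axis) for each counted probe of 11 members with several probes (horizontal axis), with the first array filled, the dye-swap array open and larger circles for brighter probes. All 4 SDHD probes lie below 0 on both arrays, both SDHA probes change sign between the arrays, and the high values of NDUFC2 and COX7B come from their dimmer probes.

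In complex V, the 16 genes had a median of 0.010, with 2 lower and 3 higher on both arrays. The 5 genes of the F1 head, which holds the catalytic sites, had a median of -0.110, and ATP5A1, the alpha subunit, was the lowest gene of complex V with 1 sign on both arrays (-0.16 and -0.06). ATP5B, the catalytic beta subunit, had signals of 37424 in control and 24246 in miR-204 RNA on the first array, but 28858 and 33647 after the dye swap. It thus changed sign between the arrays (-0.63 and 0.22), as did ATP5C1, the gamma subunit (-0.34 and 0.11). ATP5H, of the peripheral stalk, was higher on both arrays (0.02 and 0.23). The genes ATP5G1, ATP5G2 and ATP5G3, which encode the same mature subunit of the c ring, had means of -0.04, 0.09 and 0.11. For ATP5G3, the brighter probe had a mean of -0.12 and the dimmer one 0.33, so that its 2 probes pointed in opposite directions.

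Probes of the same gene mostly differed by less than in NDUFC2, COX7B and ATP5G3, where the ranges were widest. Over 30 members with several counted probes, the median range between the probes of a gene was 0.054 on the log2 scale. In 19 of them the probe means were all of 1 sign. No share over all gene names is given beside this count, so it is not read as agreement. The means differed by 0.5 or more in NDUFC2 and COX7B alone. Repeated spots on the same array give a lower limit to the error. Among probes printed 10 times and of like brightness to the members (n = 16), the median SD between spots was 0.0226 for the first array and 0.027 for the second. No member probe was printed more than once.

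The differences between members were larger on each array than in the mean of both. The SD over the 78 genes was 0.226 for the first array and 0.160 for the second, but 0.111 in the mean. Across these genes the log2 ratios of the arrays ran in opposite directions, with Pearson's r of -0.37 and Spearman's rho of -0.34, whereas r was -0.02 over all 18585 gene names. Among the brightest 10% of probes, r was -0.40 for the 82 member probes and -0.01 for the other probes. The points share the same 2 arrays, dyes and RNAs, and genes are not replicates, so these are descriptions. Negative values were not particular to the respiratory complexes, as r was -0.33 over 79 cytoplasmic ribosomal protein genes and -0.73 over 41 proteasome genes.

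The difference between the arrays, divided by 2, holds the part of a ratio that follows the dye, Cy3 over Cy5, whichever RNA carried it. It also holds any error of the single arrays, and with 1 dye swap these cannot be told apart. The value is called the dye part here. This dye part was larger than the mean log2 ratio in 45 of the 78 members (57.7%), against 52.5% of all gene names. It was 0.2 or more, with Cy3 higher, in 7 members, among them SDHA (0.47), ATP5B (0.42), NDUFV1 (0.27), COX4I1 (0.24), NDUFA10 (0.24) and ATP5C1 (0.22). It was -0.2 or less, with Cy5 higher, in 5 members, namely COX6B2, ATP5F1, NDUFA5, NDUFB5 and UQCRQ. No share over all gene names is given at this threshold, so these counts are not read as a trait of the members. For ATP5F1 the dye part came from the dimmer of its 2 probes (-0.84), with signals no higher than 49.2. The brighter ATP5F1 probe had a dye part of 0.02 and was lower on both arrays, at -0.07 and -0.03. Of 11 subunits listed by hand across the 5 complexes, 8 had Cy3 higher, with a median dye part of 0.079. Most of the 11 are core or catalytic, but COX4I1 and COX5B are not. Of the other 67 members, 28 had Cy3 higher, with a median of -0.032, and 45.9% of all gene names did. These 67 include further core subunits of complex I, such as NDUFS3, and genes of the F1 head, such as ATP5C1. The sets thus do not part core from other subunits, and the contrast was not tested. For SDHA, ATP5B, NDUFV1, COX4I1 and ATP5C1 the gene values of the 2 arrays therefore had opposite directions, and none is given for the RNA. A bright probe of COX4I1 was lower on both arrays (-0.42 and -0.04). The part of the dyes in these values was not tested.

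**Figure D4:**
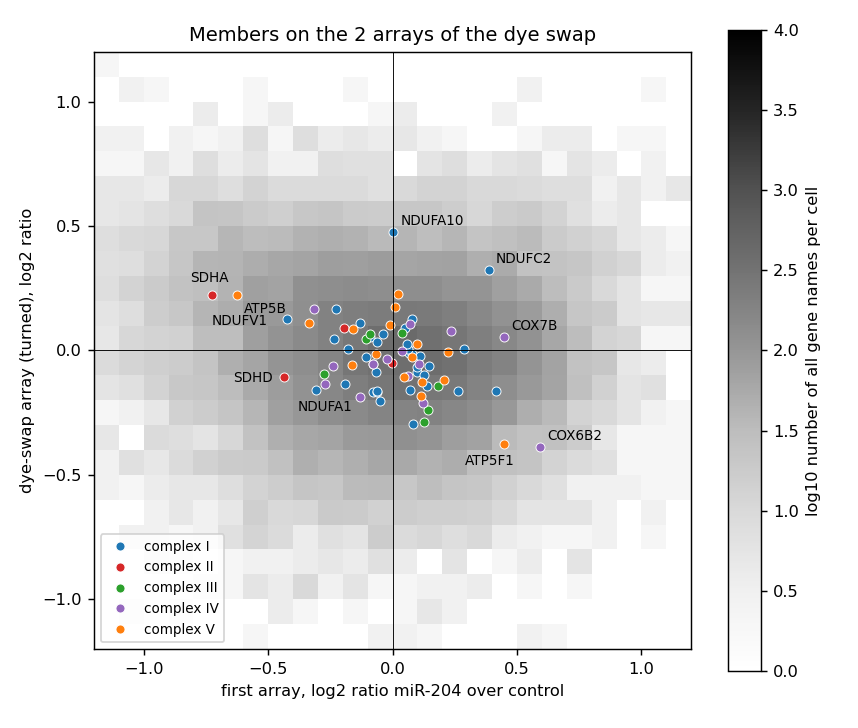
Log2 ratio of miR-204 over control on the first array (horizontal axis) against the dye-swap array after turning (vertical axis), with the members named here coloured by complex and the number of all gene names per cell in grey on a log10 scale. SDHA, ATP5B and NDUFV1 lie at the upper left, where Cy3 was brighter on both arrays, while SDHD and NDUFA1 lie at the lower left and NDUFC2 at the upper right.

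Genes that work with the respiratory complexes were also described from lists, and none of their members was called at 1.5-fold or 2-fold in either direction. Among 39 assembly factors, which help to build the complexes, the median was 0.019, with 5 lower and 11 higher on both arrays. C6orf66 (now NDUFAF4) had the highest mean, 0.36, and NDUFA12L (now NDUFAF2) the lowest, -0.32. Among 7 subunits and partners outside the name pattern, the median was 0.029, with 1 lower and 2 higher on both arrays. CYC1, cytochrome c1 of complex III, was at -0.40 on the first array and 0.00 after the dye swap, and CYCS, the electron carrier cytochrome c, at 0.32 and -0.11.

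Of 20 regulators of mitochondrial biogenesis, 3 were lower and 6 higher on both arrays, with a median of 0.065. TFB2M and TFAM, which start transcription of mitochondrial DNA, were higher on both (0.66 and 0.22, and 0.66 and 0.03). POLRMT, the mitochondrial RNA polymerase, was at -0.70 and 0.01, and NRF1 at -0.30 and 0.88. PPARGC1A, the coactivator known as PGC-1 alpha, was lower on both arrays, by little on the first (-0.06 and -0.25). These ratios were thus mostly much larger on 1 array than on the other.

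The citric acid cycle feeds NADH and succinate to complexes I and II. Its 14 enzymes outside the SDH genes had a median of -0.066, with -0.226 on the first array and 0.112 after the dye swap, and 3 lower and 3 higher on both. IDH2, the mitochondrial isocitrate dehydrogenase that uses NADP, was at -0.997 and 0.26. Within the oxoglutarate dehydrogenase complex, OGDH was lower on both arrays (-0.48 and -0.08) and DLST higher on both (0.46 and 0.31).

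The 5 measured subunits encoded in mitochondrial DNA had a median of -0.295, with 2 lower and 1 higher on both arrays. Of these, ND6 was at -1.12 on the first array and -0.03 after the dye swap, ND3 at -0.56 and -0.26, and CYTB at -0.69 and 0.10. ND1 (0.20 and 0.13) and ND2 (0.05 and -0.11) were nearer to 0. The values of these subunits thus ranged further than those of the nuclear genes, in few genes and mainly on the first array.

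Other abundant gene groups had medians near 0 as well. Of 75 mitochondrial ribosomal protein genes, 16 were lower and 18 higher on both arrays, with a median of 0.005. The 79 cytoplasmic ribosomal protein genes had a median of 0.014 and an SD of 0.100, with 10 lower and 21 higher on both. The 41 proteasome genes had a median of 0.036, with 4 lower and 9 higher on both. The SD over cytoplasmic ribosomal protein genes was thus close to the 0.111 over the respiratory genes. It was larger over the mitochondrial ribosomal protein genes (0.153) and the proteasome genes (0.139), and these differences were not tested.

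**Figure D5:**
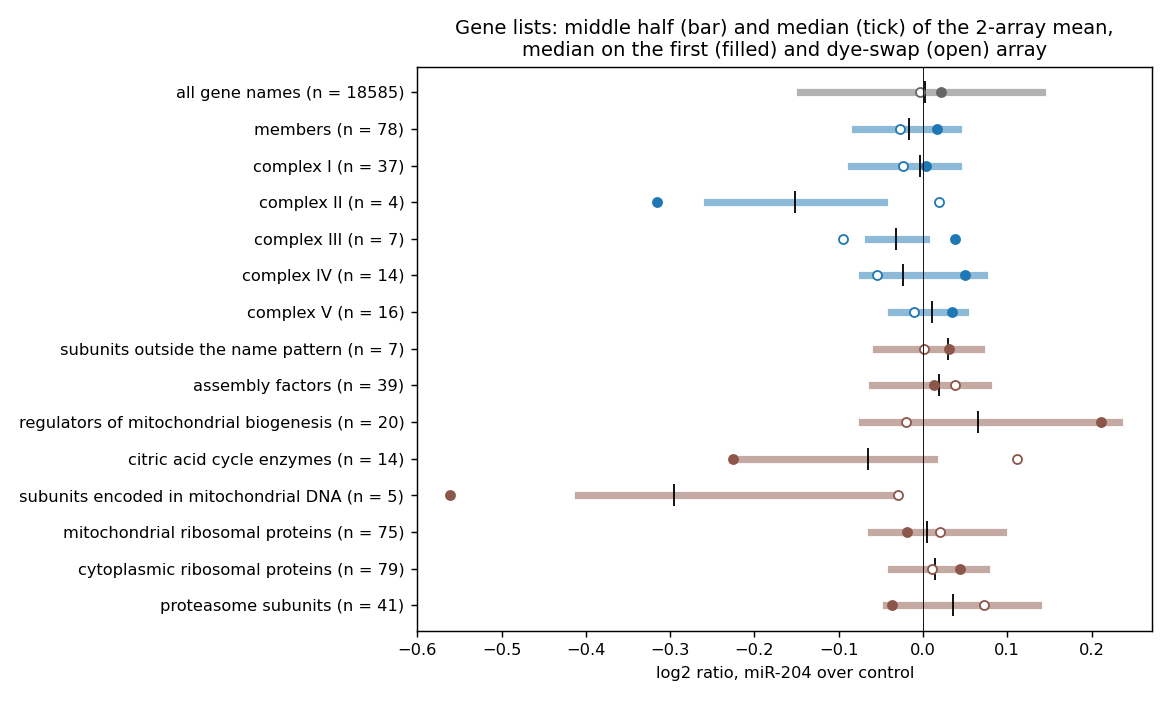
Log2 ratio of miR-204 over control (horizontal axis) for all gene names, the members, each complex and the related lists (vertical axis, with the number of genes). Bars span the quartiles of the mean over both arrays and ticks mark its median, with the median of each array as a circle (first filled, dye swap open), and the medians of complex II (-0.152) and of the subunits encoded in mitochondrial DNA (-0.295) lie furthest from 0, both mainly on the first array.

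The promoters of the members were searched for letters known to be bound by their regulators, which the choice of names did not use. RefSeq promoter windows, from 250 bases before to 50 after a start site, were given for 66 member genes (79 windows) and 35116 windows in all (GRCh38.p14). The motifs were searched on both strands, GCGC and TGCGC with any base between them for NRF1, CCGGAAG for ETS factors such as GABP, and AAGATGGC for YY1. The ETS and YY1 letters can share AAG. The NRF1 letters were in 17.7% of member windows and 5.78% of all windows, the ETS letters in 27.8% and 10.3%, and the YY1 letters in 16.5% and 2.89%. Such a match is a description of the sequence and not a measured site.

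The windows of SDHD and NDUFA1, the lowest of their complexes, of UQCR, and of SDHA, which holds the NRF1 letters 4 times, are shown as examples, since their ratios are described above. Each is a stretch 30 bases long that lies before the start site, on the strand of the gene, 5′ to 3′, with the motif in capitals. The motif begins 110 and 77 (SDHD), 47 (NDUFA1), 29 (UQCR) and 166, 117, 68 and 19 (SDHA) bases before the start site. They lie at chr11:112086753-112086782 and chr11:112086785-112086814 (SDHD), chrX:119871774-119871803 (NDUFA1), chr19:1605472-1605501 (UQCR, minus strand) and chr5:218144-218173, chr5:218193-218222, chr5:218242-218271 and chr5:218290-218319 (SDHA).
SDHD, NRF1 letters: agctgtgtttGCGCATGCGCgacgggtgtg
SDHD, ETS letters: ccgcctctcgaCTTCCGGttcacccagcat
NDUFA1, ETS letters: ttccgtcgcttCTTCCGGagccgtacgtgg
UQCR, NRF1 letters: ccctccccgcGCGCGTGCGCgccgcggccg
SDHA, NRF1 letters: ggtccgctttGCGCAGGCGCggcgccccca
SDHA, NRF1 letters: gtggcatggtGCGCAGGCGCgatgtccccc
SDHA, NRF1 letters: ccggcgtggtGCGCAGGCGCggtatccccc
SDHA, NRF1 letters: cccggtgtggtGCGCAGGCGCagtctgcgc
The median log2 ratio was -0.014 over 14 counted genes with the NRF1 letters and -0.020 over 51 without, -0.030 over 21 with the ETS letters and -0.003 over 44 without, and -0.022 over 12 with the YY1 letters and -0.012 over 53 without. These differences were not tested. Members without a window included ATP5B, ATP5D, ATP5G3, ATP5J2, ATP5S, COX4I2, COX6C, COX7A1, NDUFB5, NDUFB9, NDUFC2, NDUFS5, SDHC and UQCRB.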

How the data were processed

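Total RNA of HEK-293 cells given a miR-204 mimic or a scramble oligo was compared on 2 two-colour arrays of 1 dye swap, which lay on 1 slide and were counted as 1 replicate. The authors extracted the deposited intensity signals with Feature Extraction 9.5.3.1, which corrected the processed signals for background and dye. The deposited log10 ratio is Cy5 over Cy3 of these signals. The deposited series table holds log2 ratios that the authors quantile normalized. The p-values the authors' software gave per array were not used.

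Left out were control spots and 128 probes that carried an outlier flag, and the spots of a probe were averaged. Quantile normalization over the log2 processed signals of the 4 channels used limma 3.58.1 (R 4.3.3). The gene value is the mean over counted probes, and a call needs a mean log2 ratio of 1 with 1 sign on both arrays. The steps were tested on simulated data. Probe positions are those of the files (hg18). A member with 1 probe rests on 2 ratios, and the number of arrays limits the precision.

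The members and lists were chosen with earlier results of these data known. Genes named are the 4 lowest and 4 highest members with 1 sign on both arrays, and the lowest and highest of each complex. They also include 11 subunits listed by hand, most of them core or catalytic, and the isoform families. Members whose probes differ by 0.5 or more and members not counted were named as well. Of these, 1 is not reported here by name. ATP5C1, ATP5F1, NDUFA5, NDUFB5, SDHC and UQCRQ, and the genes named from the related lists, were named after their values were seen. Alternatives changed the normalization, background correction, deposited values, centring, filter on dim probes, outlier flags, gene summary, arrays, threshold, members and test.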

Additional observations from a re-analysis of the deposited data

How the results depend on the processing

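No member gene was called 2-fold lower or higher under any alternative run, with each array alone included. None was called at 1.5-fold on the mean of both arrays. On the first array alone, SDHA (-0.73), ATP5B (-0.63) and COX6B2 (0.59) lay beyond 1.5-fold, each with the opposite sign after the dye swap. Over 16 alternatives, the median over members ran from -0.037 to 0.016. With 1 array alone it ran from -0.028 to 0.016, the members below 0 from 37 to 46 (19 on both) and those above 0 from 32 to 41 (14 on both), since a single array asks for no second sign. With quantile normalization of the ratios, 6 members were higher on both arrays in place of 14, and the cause was not tested. The share over all gene names under that normalization is not given, so the 6 are not read as a result about the members. With the brightest 10% of probes alone, chosen after seeing the data, 68 members were counted, 20 lower (29.4%) and 10 higher (14.7%) on both, beside 21.8% and 25.4% of the other 2070 gene names with such probes. Over the arrays of 1 replicate, at an unadjusted p under 0.05, the methods' test of 2 groups gave 3 member probes (1604 of 25270 in all) and limma 2 (1177 in all). After Benjamini-Hochberg adjustment neither gave a member probe. These tests compare arrays and not conditions. No paired analysis was possible because both arrays carry the same pair of RNAs and form 1 replicate. Signal over background limits COX4I2, COX7A1 and COX7B2, for which no ratio was taken.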
